A study of Rattus norvegicus with 15 samples.

Results

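Heat shock proteins and chaperones were examined in neurons captured from 2 regions of the rat midbrain, the pars compacta of the substantia nigra (SNc) and the ventral tegmental area (VTA). The set was defined by 10 gene symbols: Hspb1, Hspa4, Hspa5, Hspa8, Hspd1, Hspe1, Hsph1, Hsp90ab1, Dnaja1 and Dnaja2. All probe sets annotated to 1 of these symbols alone were taken, which gave 24 of the 8740 probe sets on the array that are not controls, for 9 of 4736 genes. Hspa8 had no probe set of its own: its symbol stood only beside that of Haus8l2. A further probe set carried the symbols of both Asb2 and Hspb1 and was not counted.

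The samples were 8 SNc and 7 VTA captures of rat neurons, made by laser capture microdissection, and each total RNA sample was hybridised to 1 Affymetrix rat array. The replicates are numbered 1 to 8 in SNc, and 1 to 6 and 8 in VTA. The labels give no strain, age, sex or treatment, no rule for recognising neurons, and no number of animals. Each p-value below is thus set against the array-to-array spread, part or all of which may be technical.

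Chaperones bind unfolded proteins and help them to fold, to reach their compartment or to be handed on for degradation. The HSP70 proteins bind and release client proteins in a cycle driven by ATP, in which J proteins deliver clients and exchange factors free the bound nucleotide. HSP90 acts later on partly folded clients, small heat shock proteins hold unfolded ones without ATP, and the mitochondrial chaperonin encloses them in a chamber. Heat shock factor 1 induces many of the cytosolic and mitochondrial chaperones, while the unfolded protein response induces those of the endoplasmic reticulum (ER). Dopamine neurons of the SNc are the cells lost most heavily in Parkinson's disease, in which misfolded alpha-synuclein accumulates, and chaperones are widely studied there for that reason.

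Captures of both regions carried the signals of dopamine neurons. Signals are probe set intensities on the linear scale as deposited, and each difference is SNc minus VTA of log2(signal + 16). The summed signal of 10 dopamine neuron markers ran from 27410 to 34516 in SNc and from 23734 to 34229 in VTA. Th, the rate-limiting enzyme of dopamine synthesis, averaged 6615 ± 527 in SNc and 7193 ± 769.7 in VTA (SD, n = 8 and 7). Of the 10, Gch1, which makes the cofactor of Th, alone passed in limma (463 ± 169 in SNc and 1153 ± 291 in VTA, SD, difference -1.34, adjusted p = 0.00172). Of 7 microglial markers with a probe set, 5 had a mean signal below the filter of 28.5, among them Cd74, Aif1 and Itgam. Astrocyte and oligodendrocyte markers had signal on every array, with sums of 7 and 6 genes from 4354 to 6647 and from 5512 to 9772 in SNc, and from 4442 to 7463 and from 7868 to 11545 in VTA. The medians of the array correlations with the other arrays were 0.91 for VTA 5 and 0.92 for VTA 8, the lowest of the 15. Median signal per array was between 38.0 and 45.3 in SNc and between 42.3 and 46.8 in VTA (exact permutation p = 0.0168, adjusted p = 0.0755 over 9 array measures). The 3' to 5' signal ratio of the actin control ran from 6.14 to 15.4 in SNc and from 7.40 to 9.43 in VTA. That of the GAPDH control ran from 3.31 to 5.05 in SNc and from 2.94 to 6.82 in VTA, so that its wider range was in VTA.

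No chaperone probe set passed the threshold between the regions, although 2 of Hspb1 did so in some alternatives. Of the 24 probe sets, 23 passed the filter on low signal, and 0 of these had an adjusted p under 0.05 in limma, where 1.98% of all 5244 probe sets tested did. At an unadjusted p under 0.05 there were 5 of 23, against 15.7% of all probe sets, and an exact Wilcoxon test gave 6 at that level, against 13.6% of all, and 0 after adjustment, against 1.28%. Of the 5, 2 had a positive difference (5.89% of all probe sets) and 3 a negative one (9.76%). The SNc and VTA arrays overlapped in every one of the 23, while 0.858% of all probe sets did not overlap. Several probe sets share a gene, and these counts are not read as a result about the set. The median difference was 0.01 over the 23, with 14 positive and 9 negative, and -0.04 over all 5244.

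**Figure D1:**
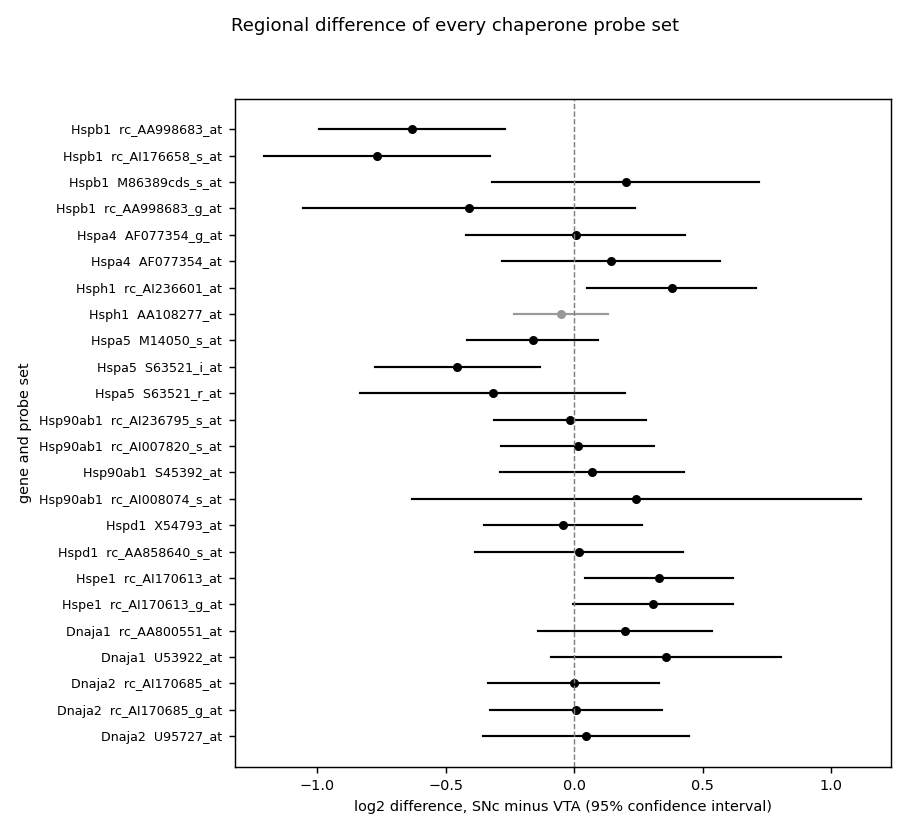
The log2 difference, SNc minus VTA, of each of the 24 chaperone probe sets (horizontal axis, points) with its 95% confidence interval (bars) from limma over 8 SNc and 7 VTA arrays. The grey row is the Hsph1 probe set that did not pass the filter. The intervals of 2 Hspb1 probe sets and 1 Hspa5 probe set lie below 0, and those of 1 Hsph1 and 1 Hspe1 probe set lie above 0.

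The 5 probe sets belong to 4 genes, Hspb1, Hspa5, Hsph1 and Hspe1. Their promoter windows all held a match to a stress element. So did those of Hspa8, Hspd1 and Dnaja1, and the matches do not set the 4 genes apart. The match was to GAA inverted repeats of the heat shock element in Hspb1, Hsph1 and Hspe1, and to the ER stress element in Hspa5. Hspb1 had 2 separate repeats and no run of 3 units, unlike Hsph1 and Hspe1. The windows are shown because heat shock factor 1 binds inverted repeats of GAA. These are spelled GAANNTTC and TTCNNGAA, each of which reads the same on both strands. The ER stress element is CCAAT and CCACG with 9 bases between them, searched on both strands. Capitals mark these matches in windows of 300 bases from RefSeq (build GRCr8), which start 250 bases before the annotated start site. The windows are chr12:26432252-26432551 (minus strand) for Hspb1, chr3:38452766-38453065 (plus strand) for Hspa5, chr12:10427118-10427417 (plus strand) for Hsph1 and chr9:64084077-64084376 (plus strand) for Hspe1.
Hspb1: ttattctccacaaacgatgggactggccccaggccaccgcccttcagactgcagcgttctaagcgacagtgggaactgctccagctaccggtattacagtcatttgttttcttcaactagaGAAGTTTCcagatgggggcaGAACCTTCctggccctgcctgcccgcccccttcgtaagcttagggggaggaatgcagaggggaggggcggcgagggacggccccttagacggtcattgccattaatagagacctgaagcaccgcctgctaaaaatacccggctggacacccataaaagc
Hspa5: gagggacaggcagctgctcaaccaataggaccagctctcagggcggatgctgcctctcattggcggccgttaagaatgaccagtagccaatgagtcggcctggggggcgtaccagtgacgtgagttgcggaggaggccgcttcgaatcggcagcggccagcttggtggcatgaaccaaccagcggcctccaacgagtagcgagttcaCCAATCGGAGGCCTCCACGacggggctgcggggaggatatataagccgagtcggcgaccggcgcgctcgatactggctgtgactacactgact
Hsph1: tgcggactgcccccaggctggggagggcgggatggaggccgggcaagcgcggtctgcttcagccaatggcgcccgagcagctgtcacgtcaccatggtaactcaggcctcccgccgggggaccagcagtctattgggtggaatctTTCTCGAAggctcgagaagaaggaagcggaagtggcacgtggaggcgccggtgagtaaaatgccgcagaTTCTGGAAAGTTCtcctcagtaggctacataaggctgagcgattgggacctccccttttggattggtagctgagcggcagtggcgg
Hspe1: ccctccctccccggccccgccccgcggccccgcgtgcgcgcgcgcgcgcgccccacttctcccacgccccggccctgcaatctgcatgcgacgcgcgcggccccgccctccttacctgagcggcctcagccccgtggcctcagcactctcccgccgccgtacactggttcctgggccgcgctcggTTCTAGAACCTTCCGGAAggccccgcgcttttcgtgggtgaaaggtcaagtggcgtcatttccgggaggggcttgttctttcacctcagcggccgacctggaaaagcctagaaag

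A window was found for 9 of the 10 symbols, all but Dnaja2. A GAA inverted repeat stood in 6 of the 9 windows, those of Hspb1, Hspa8, Hspd1, Hspe1, Hsph1 and Dnaja1, and in 15.9% of all 33469 windows of the same length. Overlapping repeats that make a run of 3 units stood in 5 of the 9, in all those named but Hspb1, and in 0.798% of all windows. In Hspb1 the 2 repeats lay apart, at positions -129 to -122 and -109 to -102 from the start site. In Hspe1, 3 overlapping repeats ran from -65 to -48. Hspe1 and Hspd1 lie head to head, and their windows share 211 bases with this run in them. The counts of 6 and of 5 windows thus hold the same run for both genes. The ER stress element stood in 1 window, that of Hspa5, at -43 to -25, and in 0.0657% of all windows. Matches describe the letters of these windows and were not tested for binding.

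Hspb1 encodes HSP27, a small heat shock protein that binds unfolded proteins and stabilises actin filaments. It had the smallest p-values of the set, and its 4 probe sets did not give the same picture. The brightest, rc_AA998683_at, had a signal of 187 at the lowest, 276 at the median and 476 at the highest in SNc, against 320.2, 446 and 539.9 in VTA. The regions overlapped through SNc 7, which was at the level of the VTA arrays, and through VTA 5, which was below SNc 7 and SNc 8. The other 6 of 8 SNc arrays were below every VTA array. The log2 difference was -0.63 (SE 0.17, 95% confidence interval -0.99 to -0.27, exact permutation p = 0.00513, limma adjusted p = 0.0709). The threshold was passed under 5 of 26 alternatives, which included leaving out SNc 7 (-0.73, limma adjusted p = 0.0201), an offset of 64 (limma adjusted p = 0.0409) and array weights (limma adjusted p = 0.0263). No other array, left out alone, took it past the threshold.

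A second probe set of Hspb1, rc_AI176658_s_at, had a signal of 42.6, 72.6 and 116 in SNc (lowest, median and highest), against 85.3, 114 and 209.6 in VTA. Here too SNc 7 was the highest SNc array, and 6 of 8 SNc arrays were below every VTA array. The difference was -0.77 (SE 0.21, 95% confidence interval -1.21 to -0.33, exact permutation p = 0.00482, limma adjusted p = 0.0692). Its adjusted p was 0.0351 without SNc 7, 0.0497 without SNc 5 and 0.0453 without VTA 8. It too passed in 5 of 26 alternatives, with array weights among the others (limma adjusted p = 0.0257). Both probe sets had a negative difference in all 26.

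The other 2 Hspb1 probe sets were dim and uneven. M86389cds_s_at had 34.9, 59.98 and 144 in SNc, against 30.99, 56.4 and 87.01 in VTA, so that both regions covered much the same range. Its difference was 0.20 (SE 0.25, 95% confidence interval -0.32 to 0.72, limma adjusted p = 0.746), and 0.06 without SNc 5, its highest array. rc_AA998683_g_at, which was made from the same source sequence as the brightest one, had 7.0, 21.5 and 90.01 in SNc, against 8.60, 34.5 and 95.1 in VTA. Its difference was -0.41 (SE 0.31, limma adjusted p = 0.563), and its highest array was 13.6 times its lowest.

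The disagreement among the Hspb1 probe sets was tested on the difference within each array, so that the level of the array drops out. The brightest probe set minus M86389cds_s_at was 1.89 ± 0.63 in SNc and 2.73 ± 0.40 in VTA on the log2 scale (SD, n = 8 and 7), a gap of -0.83 between the regions (exact permutation p = 0.00746, adjusted p = 0.112 over the 15 pairs of probe sets tested within the set). The adjusted p was 0.0350 without SNc 8. The gap was -0.93 with quantile normalization, -0.90 with an offset of 1 and -0.69 with an offset of 64. Against rc_AI176658_s_at and rc_AA998683_g_at the gaps were 0.14 and -0.22 (exact permutation p = 0.584 and 0.601). None of the 15 pairs passed after adjustment. Besides the Hspb1 pair with M86389cds_s_at, the pair of Hsph1 had an unadjusted exact permutation p under 0.05 (gap 0.43, p = 0.0210, adjusted p = 0.157). Its dimmer probe set, AA108277_at, did not pass the filter (means of 3.47 in SNc and 4.11 in VTA) and differed by -0.05. That gap thus mostly repeats the difference of 0.38 of rc_AI236601_at and cannot show that 2 working probe sets disagree. Within the regions the brightest Hspb1 probe set had a Pearson r over 15 arrays of 0.21 with rc_AI176658_s_at, 0.29 with M86389cds_s_at and -0.12 with rc_AA998683_g_at. The median over the 14 such pairs of tested probe sets of 1 gene was 0.35.

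**Figure D2:**
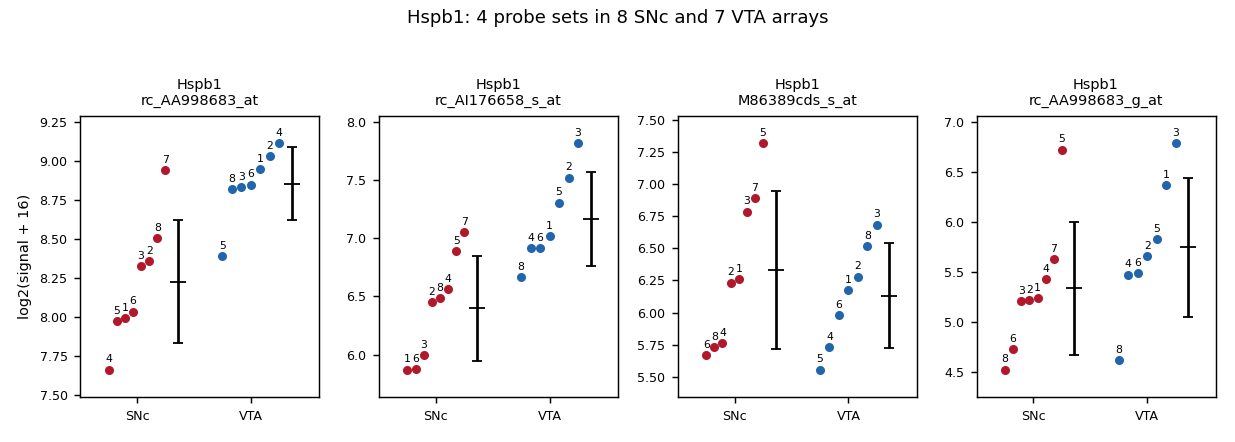
Signals of the 4 Hspb1 probe sets on the log2(signal + 16) scale (vertical axis) in SNc (left, red, 8 arrays) and VTA (right, blue, 7 arrays). Points are arrays with their replicate numbers, and bars are the mean ± SD. In the first 2 panels 6 of 8 SNc arrays lie below every VTA array, with SNc 7 the highest of SNc, while in the third panel the regions cover much the same range.

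HSP27 is also made by vessel and glial cells, whose markers were set beside it. The summed signal of 6 vessel and blood genes was 279 to 729 in SNc and 312 to 1648 in VTA (exact permutation p = 0.115). By their brightest probe sets all 6 had a negative difference, from -0.73 to -0.06. The only further probe set tested, of Acta2, was positive (0.43). None of the 6 genes passed in limma. Kdr, with the smallest p of the 6, had a mean of 27.8 in SNc and 42.0 in VTA, so that only its VTA mean was above the filter. Oligodendrocyte marker sums, given above, had an exact permutation p of 0.0278 and an adjusted p of 0.0834 over 9 array measures. By their brightest probe sets 5 of the 6 genes were negative. Astrocyte sums had an exact permutation p of 0.914. Vwf and Gja1, markers of vessels and astrocytes, had mean signals of 24.1 and 3.90, below the filter. The part of these cells in the Hspb1 difference was not tested. In captured tissue, fewer cells of a type and less RNA per cell cannot be told apart. The probe set annotated to both Asb2 and Hspb1, rc_AA799438_at, had 41.3 ± 15.3 in SNc and 65.5 ± 27.7 in VTA (SD, limma adjusted p = 0.263).

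Hspa5 encodes BiP, the HSP70 of the ER, which also holds the sensors of the unfolded protein response inactive. All 3 of its probe sets had a negative difference, and the size differed among them. S63521_i_at had a signal of 660.1, 871 and 1093 in SNc, against 845, 1146 and 1613 in VTA (lowest, median and highest). All 8 SNc arrays were below the VTA median, with VTA 4 alone among the VTA arrays below the SNc median. Its difference was -0.46 (SE 0.15, 95% confidence interval -0.78 to -0.14, exact permutation p = 0.00653, limma adjusted p = 0.141).

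The brightest Hspa5 probe set, M14050_s_at, had 1274, 1540 and 1727 in SNc, against 1507, 1612 and 2172 in VTA. SNc 1 and SNc 4 were below every VTA array, VTA 1, VTA 2 and VTA 6 were above every SNc array, and the others overlapped. Its difference was -0.16 (SE 0.12, 95% confidence interval -0.42 to 0.09, exact permutation p = 0.0772, limma adjusted p = 0.563). The third, S63521_r_at, was dim, with medians of 56.0 in SNc and 72.2 in VTA, and gave -0.32 (SE 0.25). The gap between the first 2 of these probe sets, taken within arrays, was 0.29 (exact permutation p = 0.0754, adjusted p = 0.377).

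Hsph1 encodes HSP105, a cytosolic HSP110 protein that serves as an exchange factor for HSP70. Its probe set rc_AI236601_at had a signal of 928, 1191 and 1432 in SNc, against 643, 926 and 1168 in VTA. All 8 SNc arrays were above the VTA median, and 4 of them above every VTA array. The difference was 0.38 (SE 0.16, 95% confidence interval 0.05 to 0.71, exact permutation p = 0.0239, limma adjusted p = 0.245), or 1.30-fold. VTA 5 and VTA 8, the arrays least like the others, were the VTA arrays lowest and next to lowest for Hsph1, and the difference was 0.31 without VTA 5 and 0.32 without VTA 8. The second Hsph1 probe set, AA108277_at, had means of 3.47 in SNc and 4.11 in VTA, did not pass the filter and was compared only in a fit without one (-0.05, SE 0.09).

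Hspa4, also an HSP110 protein and exchange factor of the cytosol, showed no detectable difference. Its brighter probe set, AF077354_g_at, had 73.7, 174 and 219 in SNc, against 107, 167 and 267 in VTA, with SNc 5 far below the other SNc arrays. Its difference was 0.01 (SE 0.20, 95% confidence interval -0.42 to 0.43), and that of AF077354_at was 0.14 (SE 0.20). Those intervals still allow a change of about the size seen for Hsph1. For the constitutive cytosolic HSP70 encoded by Hspa8, 2 probe sets annotated to Haus8l2 and Hspa8 together, M11942_s_at and rc_AI234604_s_at, had differences of -0.08 and 0.05 (limma adjusted p = 0.839 and 0.924). They cannot be assigned to either gene.

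Hspe1 and Hspd1 encode HSP10 and HSP60, the lid and the chamber of the mitochondrial chaperonin. Hspe1 had 1621, 1811 and 2326 in SNc by its brighter probe set, rc_AI170613_at, against 1083, 1490.1 and 1861 in VTA. All 8 SNc arrays were above the VTA median, and 5 of 7 VTA arrays were below every SNc array, with VTA 1 and VTA 5 inside the SNc range. The difference was 0.33 (SE 0.14, 95% confidence interval 0.04 to 0.62, exact permutation p = 0.00948, limma adjusted p = 0.247), or 1.26-fold. The second Hspe1 probe set, rc_AI170613_g_at, gave 0.31 (SE 0.15, limma adjusted p = 0.328), with 5 of 7 VTA arrays again below every SNc array.

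Hspd1, by contrast, had nearly equal signals in the regions. X54793_at had 1478, 1854 and 2626 in SNc, against 1566, 1909 and 2617 in VTA, and differed by -0.04 (SE 0.15, 95% confidence interval -0.35 to 0.26). The other Hspd1 probe set, rc_AA858640_s_at, differed by 0.02 (SE 0.19, 95% confidence interval -0.39 to 0.42), with SNc 5 the lowest array of all at 496. The interval of that probe set still allows a difference of the size seen for Hspe1. Taken within arrays, log2 Hspe1 minus log2 Hspd1 was -0.03 ± 0.36 in SNc and -0.40 ± 0.47 in VTA (SD, n = 8 and 7). This gap of 0.37 was chosen after the values were seen and is given without a test. Over the 15 arrays, centred within region, Hspe1 and Hspd1 had a Pearson r of -0.53, the lowest of the 36 pairs of genes in the set.

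**Figure D3:**
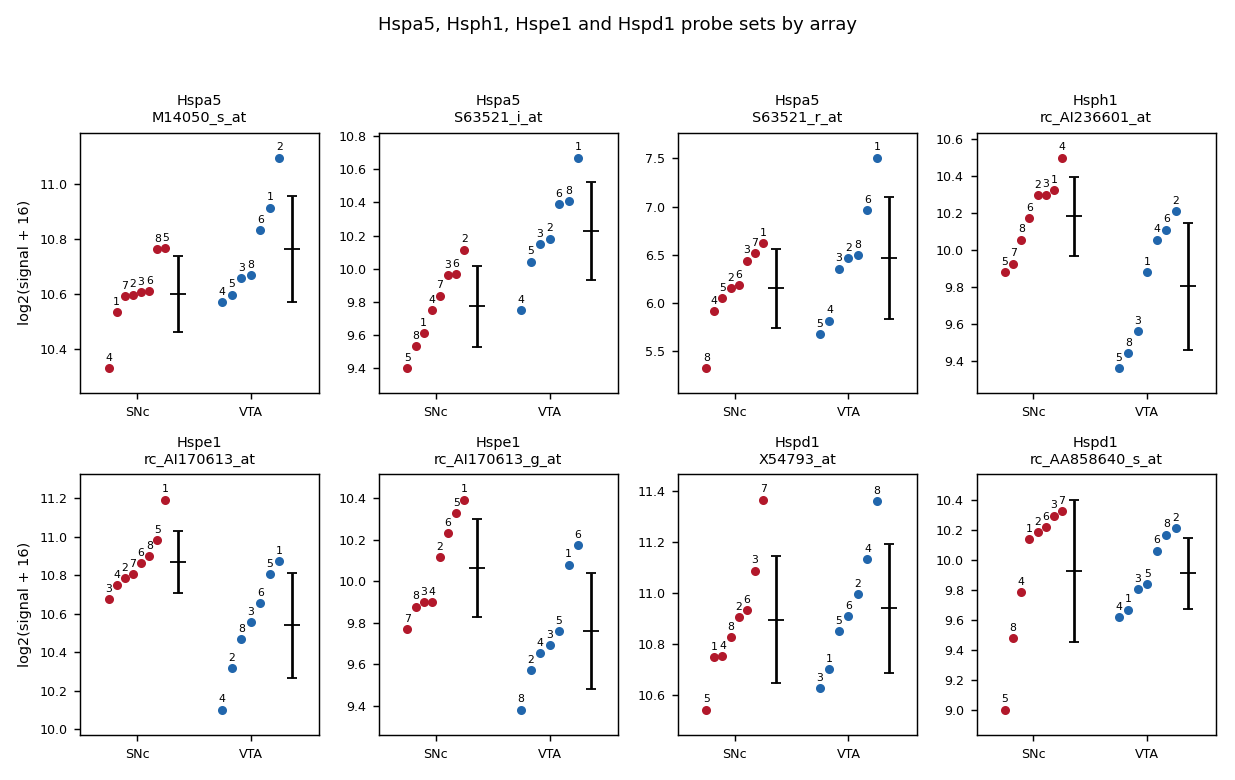
Signals of the tested probe sets of Hspa5, Hsph1, Hspe1 and Hspd1 on the log2(signal + 16) scale (vertical axis) in SNc (left, red, 8 arrays) and VTA (right, blue, 7 arrays). Points are arrays with their replicate numbers, and bars are the mean ± SD. Every SNc array of Hsph1 and of both Hspe1 probe sets lies above the VTA median, while those of Hspd1 cover the VTA range.

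Hsp90ab1 encodes HSP90 beta, the constitutive cytosolic HSP90. Its brightest probe set, rc_AI236795_s_at, had 3097, 3287 and 5027 in SNc, against 2963, 3553 and 4610 in VTA. The regions overlapped over nearly their whole range, and the difference was -0.02 (SE 0.14, 95% confidence interval -0.31 to 0.28, limma adjusted p = 0.975). Next, rc_AI007820_s_at and S45392_at differed by 0.01 (SE 0.14) and 0.07 (SE 0.17).

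The fourth Hsp90ab1 probe set stood apart by its spread. rc_AI008074_s_at had 202, 753 and 1711 in SNc, against 347, 437 and 1386 in VTA, with high and low arrays in both regions. SNc 5 was the highest and SNc 4 the lowest of all 15. Its SD within regions was 0.94 on the log2 scale, larger than that of 99.3% of the probe sets tested, whose median was 0.36. Its difference was 0.24 (SE 0.42, 95% confidence interval -0.63 to 1.12), and its Pearson r with the brightest Hsp90ab1 probe set was -0.13, where that of rc_AI007820_s_at was 0.79.

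Dnaja1 and Dnaja2 encode J proteins that bring clients to cytosolic HSP70. Dnaja1 had 1592, 2062 and 2666 in SNc by rc_AA800551_at, against 1137, 1789 and 2708 in VTA, and 7 of 8 SNc arrays were above the VTA median. Its difference was 0.20 (SE 0.16, limma adjusted p = 0.594). The other Dnaja1 probe set, U53922_at, had 1374, 1562 and 1915 in SNc, against 563, 1337 and 1991 in VTA, and differed by 0.36 (SE 0.21, limma adjusted p = 0.443). VTA 5 was the lowest of all 15 arrays on both, and without it the differences were 0.09 and 0.17.

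For Dnaja2 the 3 probe sets gave differences within 0.05 of 0. The brightest, rc_AI170685_at, had 519, 779 and 1136 in SNc, against 562, 839.8 and 898 in VTA, and differed by 0.00 (SE 0.16, 95% confidence interval -0.34 to 0.33). The others, rc_AI170685_g_at and U95727_at, differed by 0.01 (SE 0.16) and 0.05 (SE 0.19). Across the 24 probe sets, VTA 5 was the lowest VTA array in 10 and the highest in 0. SNc 7 was the highest SNc array in 10, and SNc 5 the lowest in 8.

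Correlations between arrays of a region differed widely among the chaperones. By the brightest probe set of each gene, the 36 pairs had a median Pearson r of 0.22 over 15 arrays, from -0.53 to 0.76. All pairs of the 3221 genes had a median of 0.01 and quartiles of -0.21 and 0.22. The highest values joined Hspb1 with Dnaja2 (0.76), Hspa4 with Hspd1 (0.67) and with Dnaja1 (0.62), and Hspd1 with Dnaja2 (0.61). Hspe1 was negative with 7 of the other 8 genes, Hspa5 being the exception at 0.13. These values come from shared arrays and a shared scaling and are given as a description.

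**Figure D4:**
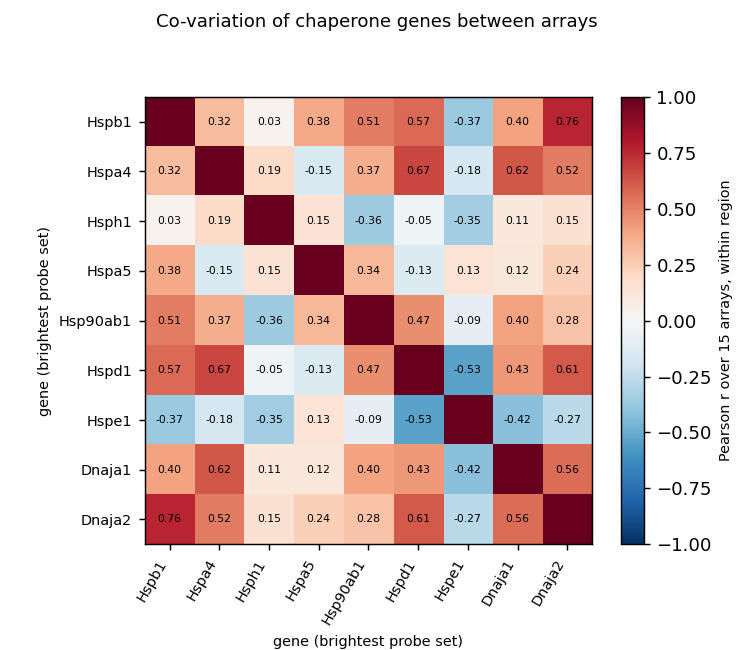
Pearson r between the 9 chaperone genes (both axes, brightest probe set of each) over 15 arrays, from log2(signal + 16) centred within SNc and within VTA. Red marks positive and blue negative r. The row of Hspe1 is negative for all genes but Hspa5, down to -0.53 with Hspd1.

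Among all genes with 1 symbol, the 3 probe sets most like each chaperone gene over the 15 arrays were listed, by the same centred Pearson r. For Hspa5 the first was Pdia6, a disulfide isomerase of the ER (0.84), before Reln (0.80) and Pak3 (0.76). For Hsph1 they were Pisd (0.85), Xrn2 (0.85) and St13, a co-chaperone of HSP70 (0.83). For Hspd1 they were Ndrg4 (0.86), Hes1 (0.84) and Hsp90ab1 by its probe set S45392_at (0.80). Natd1 led for Hspb1 (0.83), Crot for Hspa4 (0.90), Sdc1 for Hsp90ab1 (0.89), Rpl26 for Hspe1 (0.82), Bckdha for Dnaja1 (0.86) and RT1-DMa for Dnaja2 (0.82).

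Other genes of protein folding and stress were taken from 6 lists, each gene by its brightest probe set. Of 112 genes listed, 50 were tested and 0 passed in limma, where 71 of all 3221 genes did. At an unadjusted p under 0.05 there were 2 of the 50, or 4%, against 15.7% of all genes. These counts are not read as a result about the lists. The 2 were Calr and Hspa1l. The mean signal of Hspa1l in SNc was below the filter, so that it was tested only through its VTA arrays. Serpinh1 also passed the filter through VTA alone. The median difference of the 50 was -0.02, and that of all 3221 genes -0.04. A negative difference was found for 28 of the 50, or 56%, against 55.6% of all genes. The 0 held in all 28 alternatives.

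The ER list held chaperones and genes of the unfolded protein response, with 9 of 15 negative, 6 positive and a median of -0.04. Its 3 smallest p-values belonged to chaperones of the ER, and all 3 had a negative difference by their brightest probe sets, as Hspa5 did. Other tested probe sets gave -0.28 and -0.17 for Calr, and 0.03 and -0.23 for Hsp90b1. Calr, or calreticulin, which folds glycoproteins, had 649 ± 187 in SNc and 819.9 ± 129 in VTA (SD, -0.37, SE 0.17, limma adjusted p = 0.317). Hsp90b1, the HSP90 of the ER, had 552 ± 84.3 in SNc and 691 ± 152 in VTA (SD, -0.30, SE 0.15, limma adjusted p = 0.335). Pdia6 had 1459 ± 149.7 in SNc and 1698 ± 175 in VTA (SD, -0.22, SE 0.12, limma adjusted p = 0.379). In the same list Canx, or calnexin, differed by 0.01 and Ddit3, a transcription factor of ER stress, by 0.39 (SE 0.23). Both were named after their values were seen.

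Heat shock proteins and co-chaperones of the other classes were divided, with 9 of 15 positive, 6 negative and a median of 0.16. Hspa1l, an HSP70 known chiefly from testis, was dim, at 24.0 ± 6.68 in SNc and 37.9 ± 13.7 in VTA (SD, -0.41, SE 0.17). Dnajc5, the cysteine string protein of synaptic vesicles, had 1742 ± 229.8 in SNc and 1472 ± 131 in VTA (SD, 0.23, SE 0.12, limma adjusted p = 0.356). Dnajb1, a J protein that heat shock induces, had 307 ± 52.9 in SNc and 366 ± 50.01 in VTA (SD, -0.25, SE 0.13, limma adjusted p = 0.381). The list includes Dnaja3 and Dnajb9, J proteins of the mitochondrion and the ER.

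The remaining lists were small. All 3 small heat shock proteins tested beside Hspb1 had a negative difference, as 55.6% of all genes did. It was -0.17 (SE 0.16) for Hspb2, -0.23 (SE 0.26) for Cryab, or alpha-B crystallin, and -0.13 (SE 0.17) for Cryaa. Of 5 mitochondrial chaperone genes 3 were positive, and Timm44, Grpel1 and Ppif differed by -0.26, 0.14 and 0.17. Of the cytosolic chaperonin and prefoldin, Cct3, Cct6a and Pfdn2 differed by -0.26, -0.08 and 0.02. Of 9 genes tested on the list labelled other stress-induced genes 6 were negative, with a median of -0.01. Clu, Hmox2 and Atf3 differed by 0.16, -0.10 and -0.08. The label does not mean that stress induces each gene on that list. The immediate early genes, which tissue handling can induce, had sums of 6 genes from 421 to 711 in SNc and from 588 to 812 in VTA (exact permutation p = 0.00777, adjusted p = 0.0699 over 9 array measures). All 6 had a negative difference by their brightest probe sets, from -0.62 to -0.10, and none passed in limma. Other tested probe sets were positive for Fos (0.31) and Nr4a1 (0.17), and negative for Jun (-0.14 and -0.50) and Egr1 (-0.41). Junb, Jun and Egr1, 3 of the 6, had an unadjusted p under 0.05 in limma, against 15.7% of all genes. Of the 3, Junb had only its VTA mean above the filter. Of 11 immediate early genes with a probe set, Fosl1, Jund, Egr2, Egr3 and Dusp1 had mean signals below the filter and were not tested. The part of handling in the chaperone values was not tested.

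**Figure D5:**
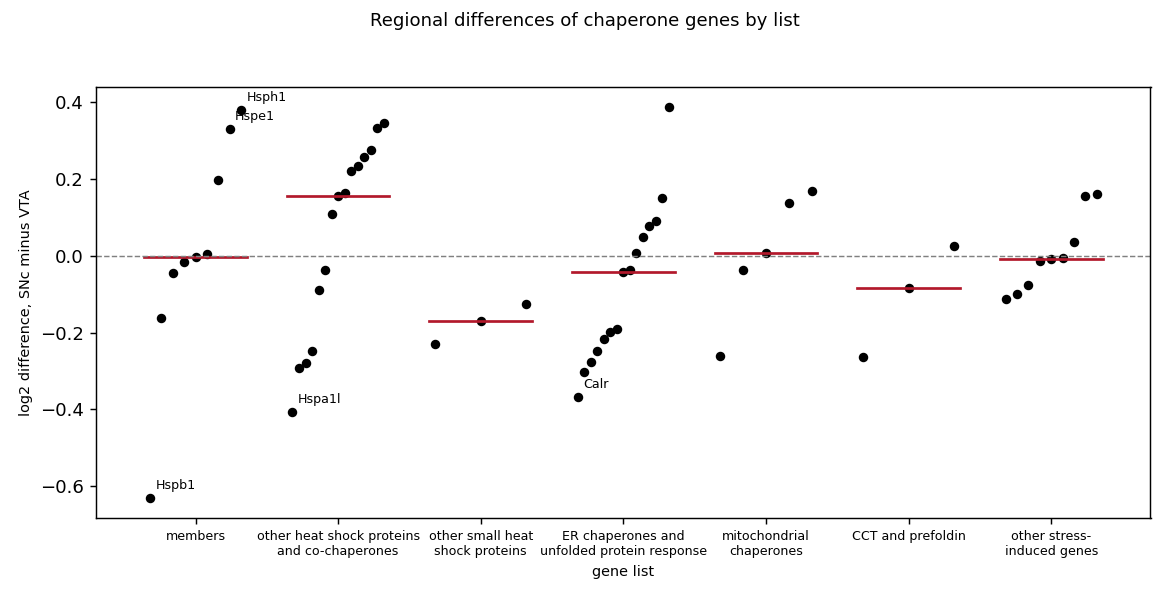
The log2 difference, SNc minus VTA, of each gene by its brightest probe set (vertical axis, points) in the chaperone set and in 6 further lists (horizontal axis). Red lines are list medians, and genes with an unadjusted limma p under 0.05 are named. No gene passed after adjustment, and the medians lie between -0.17 and 0.16.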

How the data were processed

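Each array's deposited column gives a linear intensity for every probe set. The trimmed mean was 150.2 on every array, so these values look scaled to a common level by the authors. The software and the background correction were not given in the sources used here.

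Left out were 59 control probe sets and, of the others, the dimmest 40% by mean signal. Values of log2(signal + 16) were fitted by lmFit and eBayes of limma 3.58.1 (R 4.3.3). Two-sided p-values were adjusted over all 5244 probe sets (Benjamini-Hochberg), with a threshold of 0.05. The offset makes differences of dim probe sets smaller. Fold changes are on that scale. The fit was tested on simulated data. Gene names came from the platform annotation, which gave 7006 probe sets 1 symbol, 308 several and 1426 none. Single values and differences between probe sets of a gene were tested by exact permutation over arrays.

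The members and gene lists were chosen with earlier results of these data known. Every member probe set is named. From each other chaperone list the genes past the threshold were to be named, with those of smallest p up to 3. No such rule covered the marker lists. Alternatives were 2 normalizations, offsets of 1 and 64, 2 filters, replicate blocks, array weights, a trended and robust variance, a threshold of 0.10, an exact Wilcoxon test, the mean of a gene's probe sets and leaving out each array. Within-region correlations carry no p. The number of arrays limits precision.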

Additional observations from a re-analysis of the deposited data

Results flagged for a closer look

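Over the 24 probe sets and both regions, 48 groups of arrays were searched for 1 array far from the rest on the log2 scale, and 4 were found, where chance gives about 1 in 20 groups. Hspb1 by rc_AA998683_at was 320.2 in VTA 5, the lowest VTA array, with VTA 8 next at 437. Hspa4 by AF077354_g_at was 73.7 in SNc 5, with SNc 2 next at 161. Hspa4 by AF077354_at was 71.4 in VTA 8, the highest VTA array, with VTA 1 next at 34.3. Hsp90ab1 by S45392_at was 1573 in SNc 7, the highest SNc array, with SNc 4 next at 1212.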

How the results depend on the processing

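The count of chaperone probe sets past the threshold was 0, and it became 1 with an offset of 64, 1 with the replicate number as a fixed replicate block, 2 with it as a random replicate block, 2 with array weights and 2 at a threshold of 0.10. Leaving out single arrays gave 0 to 2, with 1 without SNc 5, 2 without SNc 7 and 1 without VTA 8. All these calls were of the Hspb1 probe sets rc_AA998683_at and rc_AI176658_s_at, whose adjusted p ran from 0.0201 to 0.139 and from 0.0257 to 0.143. The fixed block leaves SNc 7 without a partner, so it rests on the other 14 arrays. The labels do not say what a number marks. Deviations of same-numbered arrays had correlations of 0.05 to 0.25, and 5 of 7 were over 0.1, where all 7 were required to take the numbers as pairs. All 7 were positive, and 7 of 14 arrays were most like their own number, so that pairing was not settled. With the fixed and the random block the adjusted p was 0.0418 and 0.0394 for rc_AA998683_at, and 0.0534 and 0.0394 for rc_AI176658_s_at. The count over all probe sets was 104, and it was 61 with an offset of 1, 185 with array weights, 208 at a threshold of 0.10 and 67 by the exact Wilcoxon test. It ran from 57 to 112 on leaving out single arrays, and was over 1.5 times smaller without SNc 2, SNc 3, SNc 4, VTA 1, VTA 2, VTA 3, VTA 5 or VTA 6. The count of disagreeing pairs of probe sets was 0, and 1 with an offset of 64, with 0 to 1 on leaving out single arrays. That pair was rc_AA998683_at with M86389cds_s_at of Hspb1, and the array was SNc 8. Of the 24 probe sets, 14 kept their sign in every alternative run, and the other 10 had differences of at most 0.07 in size. Of the 15 pairs, 8 changed sign in some alternative. Median centring shifted all differences by 0.09, with 63.8% of 105 calls positive in place of 42.3%. The cause of these changes was not tested. With 60% of probe sets left out, 3 dim Hspb1 and Hspa4 probe sets and 1 of Hspa5 gave no value.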
